A study of Mus musculus with 32 samples.

Results

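Among genes whose expression shifted without ELOF1 in the same direction in a mouse B lymphoma line and in primary mouse splenic B cells, 7 genes with separate functions were followed over every day, library and scaling. ELOF1 is an elongation factor that travels with RNA polymerase II along transcribed genes. The 7 genes are Fgd2, Scn4a, Abca7, Mknk2 and Slc15a3, which were higher in ELOF1-deficient cells, and Arhgef12 and Rasal2, which were lower. They are 7 of 43345 mouse genes in the count tables, and all 7 passed the filter on low counts in both systems. They were chosen on the genotype difference at day 1.5 in the line CH12F3 and at day 2.5 in spleen, so at those days their values are a description and were not tested. Only the genotype differences at CH12F3 days 3 and 7 and at spleen day 3.5 are tested here. Their spread was estimated over all libraries of a system, those used for the choice included, so these tests are not fully separate from it.

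The study sequenced RNA from activated B cells with and without ELOF1, in 32 libraries. The ELOF1-deficient CH12F3 cells were Elof1 knockout (Elof1-KO) cells with a vector, and the ELOF1-proficient ones were Elof1-KO cells that carried an ELOF1 construct, so both groups carry the knockout. All CH12F3 cells were treated with α-CD40, IL4 and TGF-β, and each group had 4 libraries at day 1.5 and 2 at each of days 3 and 7. Splenic B cells were Elof1-cKO (a conditional knockout) or wild type, all treated with IL4 and LPS, and each genotype had 5 libraries at day 2.5 and 3 at day 3.5. The labels give neither the Cre driver, the age of the mice nor whether the knockout line is a single clone. They also do not say whether replicates came from separate cultures or animals, or whether the later days continue the earlier cultures, so p-values measure the spread between these libraries, which may be technical. Library names fall into 2 runs of numbers, a first library series, numbered 15 to 22, and a second with much higher numbers. The first holds replicates 1 and 2 of CH12F3 day 1.5 and replicates 4 and 5 of spleen day 2.5, and all later days lie in the second.

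The 7 genes act in different processes. Fgd2 and Arhgef12 encode Dbl-type exchange factors that load small GTPases with GTP. FGD2 acts on Cdc42 and is found in antigen-presenting cells, B cells among them, while ARHGEF12 (LARG) links receptors coupled to the G12 and G13 proteins to RhoA. Rasal2 encodes a GTPase-activating protein that switches Ras off. Abca7 encodes a lipid transporter of the ABCA family, Slc15a3 a lysosomal transporter of histidine and peptides that include bacterial muramyl dipeptide, and Scn4a the pore-forming subunit of the voltage-gated sodium channel of skeletal muscle. MNK2, the product of Mknk2, is a kinase downstream of ERK and p38 that phosphorylates the cap-binding factor eIF4E.

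The start regions are shown for the 4 genes whose RefSeq start lies exactly at the gene start in the count tables, a pair that was higher (Fgd2, Abca7) and the pair that was lower (Arhgef12, Rasal2). Each window runs from 250 bases before to 50 bases after the start, in RefSeq on GRCm38.p6, 5′ to 3′ on the gene's strand. Capitals mark matches, on either strand, to the 7 motifs searched: the GC box GGGCGG, the CCAAT box, the E-box CACGTG, the core GAGGAA of sites of PU.1-type ETS factors, the TATA box TATAAA, the STAT6 type TTCNNNNGAA and the octamer core ATGCAAA. No 2 matches overlapped in these windows.
Fgd2, chr17:29360664-29360963, plus strand: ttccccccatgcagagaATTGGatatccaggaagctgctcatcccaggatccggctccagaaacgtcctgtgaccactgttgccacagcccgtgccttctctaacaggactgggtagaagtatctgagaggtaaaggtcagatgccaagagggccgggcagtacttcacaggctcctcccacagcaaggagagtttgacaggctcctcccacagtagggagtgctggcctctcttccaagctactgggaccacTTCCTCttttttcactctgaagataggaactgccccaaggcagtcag
Abca7, chr10:79996244-79996543, plus strand: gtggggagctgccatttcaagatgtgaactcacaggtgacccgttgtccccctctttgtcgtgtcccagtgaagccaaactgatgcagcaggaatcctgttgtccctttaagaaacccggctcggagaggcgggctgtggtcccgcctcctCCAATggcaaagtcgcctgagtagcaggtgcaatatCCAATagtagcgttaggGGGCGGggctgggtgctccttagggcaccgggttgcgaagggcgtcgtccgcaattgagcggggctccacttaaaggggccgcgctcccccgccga
Arhgef12, chr9:43105669-43105968, minus strand: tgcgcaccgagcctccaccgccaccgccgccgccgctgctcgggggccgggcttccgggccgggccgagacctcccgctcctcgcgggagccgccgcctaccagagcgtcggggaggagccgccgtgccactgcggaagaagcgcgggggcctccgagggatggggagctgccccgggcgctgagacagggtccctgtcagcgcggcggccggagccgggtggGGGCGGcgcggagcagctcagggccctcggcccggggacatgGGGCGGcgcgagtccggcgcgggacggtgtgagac
Rasal2, chr1:157412546-157412845, minus strand: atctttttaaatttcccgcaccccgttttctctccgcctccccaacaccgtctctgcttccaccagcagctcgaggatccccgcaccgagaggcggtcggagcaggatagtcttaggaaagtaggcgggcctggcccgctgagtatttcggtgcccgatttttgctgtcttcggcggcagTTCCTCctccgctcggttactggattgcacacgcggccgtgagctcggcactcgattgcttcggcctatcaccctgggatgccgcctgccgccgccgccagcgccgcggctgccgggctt

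The 4 windows differ in composition. The Arhgef12 window was 79.7% G or C with 44 CpG dinucleotides, above 98.8% and 97.8% of all 32851 RefSeq windows. The Rasal2 window was 63.3% G or C with 31 CpGs, the Abca7 window 60.7% with 19, and the Fgd2 window 55.0% with 4 CpGs, against a median of 52.7% and 7 CpGs over all windows. The GC box occurred at 2 places in Arhgef12 and at 1 in Abca7 and lies in 35.7% of all windows, and CCAAT occurred in Fgd2 and Abca7 and lies in 37.4%. The PU.1-type core occurred in Fgd2 and Rasal2, 1 higher and 1 lower gene, and lies in 28.3% of windows. CACGTG (7.15% of windows), the STAT6 type (6.95%) and the octamer core (4.63%) matched none of the 4, and TATAAA (13.6%) matched none either. These are matches of letters, not sites of binding.

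In span from start to end in the count tables, the 2 lower genes were the longest of the 7. On mm10, Rasal2 covers 277 kb of the minus strand (chr1:157135182-157412595) and Arhgef12 142 kb of the minus strand (chr9:42963842-43105718), longer than 98.5% and 95.1% of the genes tested in CH12F3. The 5 higher genes cover 6.65 to 34.7 kb. These are Mknk2 (chr10:80665332-80671976, minus strand, 6.65 kb), Fgd2 (chr17:29360914-29379660, plus strand, 18.7 kb), Abca7 (chr10:79996494-80015572, plus strand, 19.1 kb), Slc15a3 (chr19:10839727-10859362, plus strand, 19.6 kb) and Scn4a (chr11:106318592-106353288, minus strand, 34.7 kb). The RefSeq start of Mknk2 (chr10:80676293) lies 4317 bases upstream of its start in the count tables, and a span from there would exceed 10 kb. Counts were taken over exons, which total 3.06 kb in Mknk2 and 13.7 kb in Rasal2, the shortest and longest of the 7.

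As a check of the labels, Elof1 had 0.966 to 5.49 counts per 1000000 mouse counts (CPM) in the vector libraries and 140 to 681 CPM in the CH12F3 libraries with the construct. In spleen it had 1.27 to 7.65 CPM in cKO and 10.99 to 55.1 CPM in wild-type libraries. The libraries held 7112130 to 16359477 mouse counts, with 2.15% to 8.39% as many from the added fly RNA. All 8 B cell markers were detected in every group, with a summed level of 6100 CPM or more in each library. The 9 T and NK cell markers summed to at most 7.61 CPM and the 5 neutrophil markers to at most 0.623 CPM. In CH12F3 the 7 macrophage and monocyte markers summed to between 46.86 CPM (vector, day 1.5) and 235.1 CPM (vector, day 7). Adgre1 reached 189.5 CPM and Csf1r 59.14 CPM in that line. The 5 dendritic cell markers summed to 29.68 to 62.85 CPM in CH12F3. In spleen these sets reached 17.84 and 67.75 CPM, both in wild-type cells at day 2.5. Whether other cells contributed to these sums was not tested. In bulk RNA, fewer cells of a type and less RNA per cell cannot be told apart.

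Tests used edgeR's quasi-likelihood fit over all 16 libraries of a system, with trimmed-mean (TMM) scaling and a term for library series. A gene is called when the Benjamini-Hochberg adjusted p over all tested genes is below 0.05. Differences are log2 fold changes of ELOF1-deficient over ELOF1-proficient cells with the standard error (SE), and levels are CPM on the total of mouse counts.

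The choice left the following pattern at the 2 days it used. Of 12258 genes tested in both systems, 29 were called at both days, 17 of them in the same direction (10 higher, 7 lower) and 12 in opposite directions, and the 7 genes are 7 of the 17. At CH12F3 day 1.5, where 1.15% of genes were called (0.606% higher, 0.549% lower), the log2 fold changes were 0.99 for Scn4a, 0.84 for Fgd2, 0.59 for Mknk2, 0.57 for Abca7, 0.39 for Slc15a3, -0.51 for Arhgef12 and -1.02 for Rasal2. For spleen day 2.5, where 5.18% were called (2.82% higher, 2.36% lower), they were 0.79 for Scn4a, 0.90 for Fgd2, 0.43 for Mknk2, 0.50 for Abca7, 0.70 for Slc15a3, -0.49 for Arhgef12 and -0.93 for Rasal2. Abca7 lay just inside the threshold, with an adjusted p of 0.0436 at CH12F3 day 1.5 in edgeR, and Pcif1 just outside it, with the larger of its 2 adjusted p-values at 0.0513. The vector or cKO libraries did not overlap the ELOF1 or wild-type ones for 6 of the 7 genes at CH12F3 day 1.5 (background 1.78% higher, 1.93% lower) and for 3 at spleen day 2.5 (background 1.5% higher, 1.62% lower). When either library series of CH12F3 day 1.5 was fitted alone, 0 of the 7 were called, with 52 genes called in the first series and 0 in the second. Only Fgd2 was called at that day without the term for library series (22 of all genes) or with only the compared groups (66 of all genes). At spleen day 2.5 the first series alone called 0 of the 7 and 0 of all genes. The second series alone called 7, on values the choice used. Its count over all genes is not reported here, so these 7 cannot be set against a background.

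In the days the choice did not use, every one of the 7 genes kept its direction. So did each of the other 10 of the 17 genes called in the same direction, Elof1 among them, so this is not particular to the 7. In spleen at day 3.5, 3 genes rose in cKO cells by the test, Fgd2, Abca7 and Mknk2, where 2.07% of all 13367 genes were called (1.14% higher, 0.928% lower). The other 4 missed the threshold, with edgeR adjusted p-values of 0.0731 to 0.210. The cKO and wild-type libraries did not overlap for 7 of 7 genes, against 12.6% of all genes on the higher side and 12.5% on the lower side. In CH12F3, averaged over days 3 and 7, Fgd2 rose in vector cells and no other of the 7 was called, against 0.183% of 14201 genes (0.0775% higher, 0.106% lower). The vector and ELOF1 libraries of those days did not overlap for 4 of 7 genes, Fgd2, Abca7, Arhgef12 and Rasal2, against 2.93% of genes on the higher and 3.27% on the lower side.

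**Figure D1:**
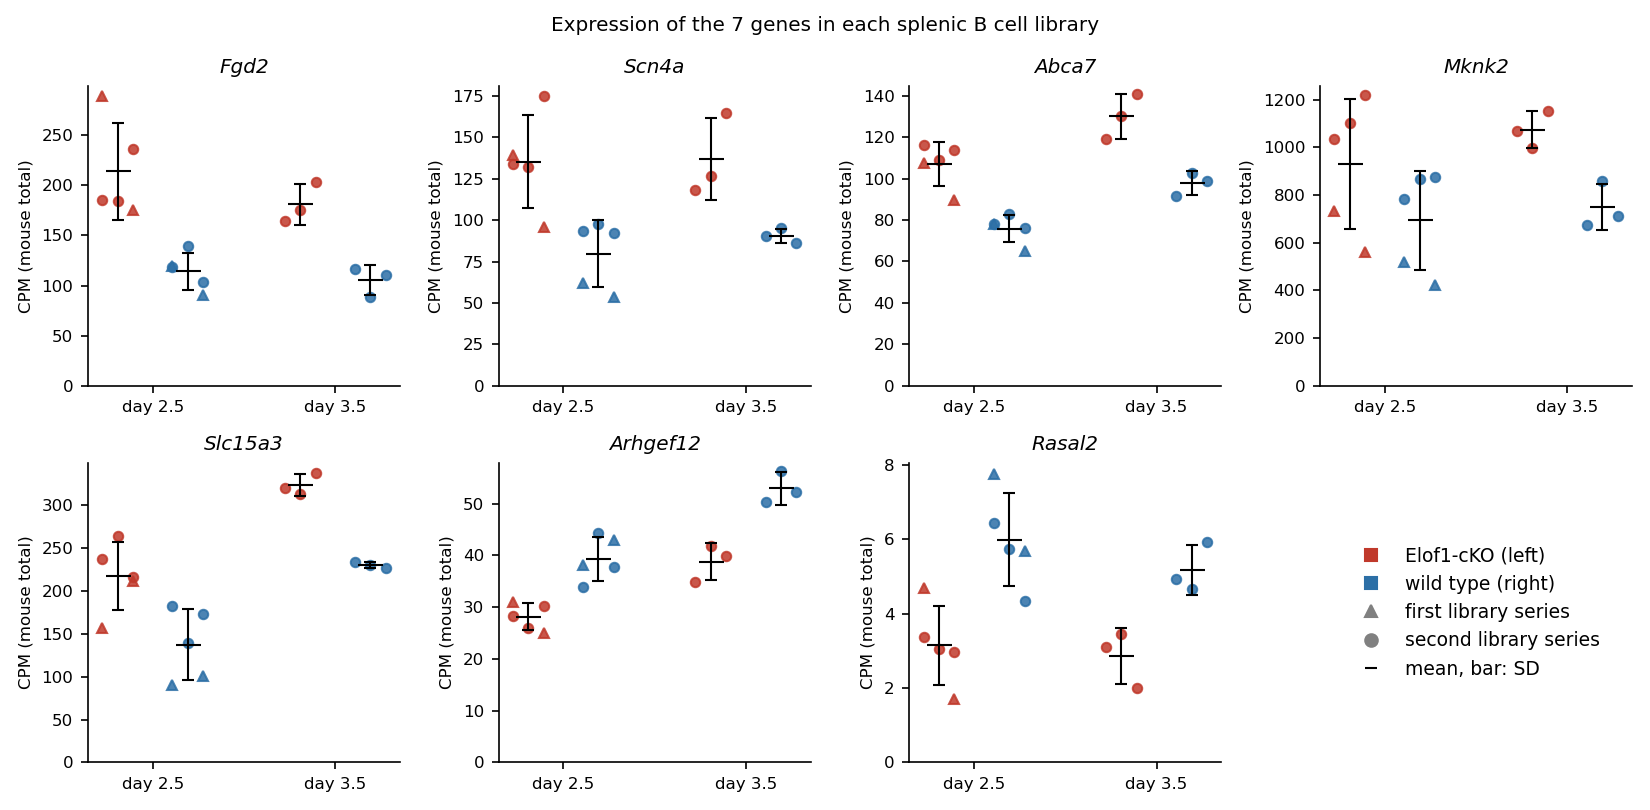
Expression of the 7 genes in CPM on the mouse total (y axis) in each splenic B cell library at days 2.5 and 3.5, Elof1-cKO left and wild type right. Points are libraries, triangles the first and circles the second library series, and black bars are mean and SD. At day 3.5 all 3 cKO libraries lie above all 3 wild-type libraries for the 5 higher genes and below them for Arhgef12 and Rasal2.

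**Figure D2:**
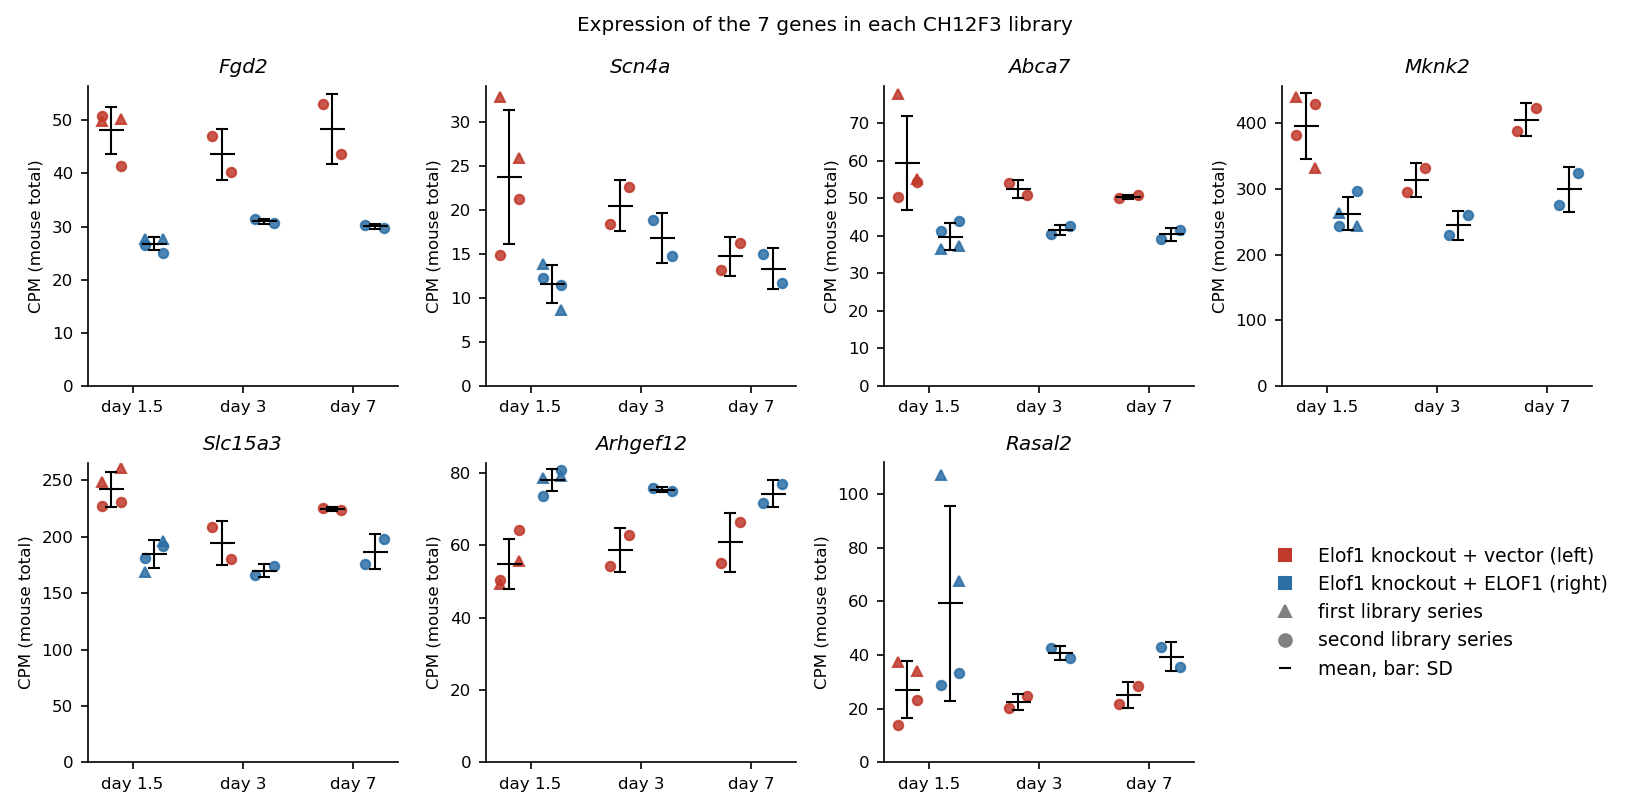
The same for CH12F3 at days 1.5, 3 and 7, with vector cells on the left and cells with the ELOF1 construct on the right. Fgd2 has 40.2 CPM or more in every vector library and 31.4 CPM or less in every library with the construct, while the Scn4a groups overlap at days 3 and 7.

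Fgd2, the exchange factor for Cdc42, had the largest tested rise of the 7 in both systems. Its 3 cKO libraries of spleen day 3.5 had 164, 176 and 203 CPM, against 117, 88.5 and 111 CPM in wild-type libraries. The lowest cKO library lay above the highest wild-type library, and the log2 fold change was 0.78 ± 0.19 (SE, edgeR adjusted p = 0.0455), a fold of 1.72. At day 2.5 it had 185, 184, 236, 289 and 175 CPM in cKO libraries, against 119, 139, 103, 120 and 90.8 CPM in wild-type libraries.
In CH12F3 at day 3, Fgd2 had 47.0 and 40.2 CPM in vector libraries, against 31.4 and 30.7 CPM in ELOF1 libraries. Day 7 gave 53.0 and 43.7 CPM in vector libraries, against 30.3 and 29.7 CPM in ELOF1 libraries. Averaged over both days its log2 fold change was 0.59 ± 0.09 (SE, edgeR adjusted p = 0.0201), a fold of 1.50. All 4 vector libraries lay above all 4 ELOF1 libraries. The groups were also apart at day 1.5, with 49.9, 50.3, 50.8 and 41.4 CPM in vector libraries, against 27.7, 27.7, 26.6 and 25.1 CPM in ELOF1 libraries.

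Arhgef12, the exchange factor for RhoA, was lower in deficient cells on every day. In spleen at day 3.5 it had 34.8, 41.8 and 39.8 CPM in cKO libraries, against 50.3, 56.4 and 52.2 CPM in wild-type libraries. The 3 cKO libraries lay below all wild-type ones, and the log2 fold change was -0.45 ± 0.12 (SE, edgeR adjusted p = 0.0731). At day 2.5 the cKO libraries had 28.2, 26.0, 30.3, 31.1 and 25.1 CPM, against 33.8, 44.3, 37.7, 38.1 and 43.0 CPM in wild-type libraries.
In CH12F3 it had 54.4 and 62.9 CPM in vector libraries at day 3, against 75.9 and 74.9 CPM in ELOF1 libraries. At day 7 it had 55.1 and 66.6 CPM in vector libraries, against 71.7 and 77.0 CPM in ELOF1 libraries. The groups did not overlap on either day, and the averaged difference was -0.32 ± 0.10 (SE, edgeR adjusted p = 0.251). At day 1.5 the vector libraries had 49.2, 55.6, 50.5 and 64.4 CPM, against 78.7, 79.3, 73.7 and 80.9 CPM in ELOF1 libraries.

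Rasal2, which switches Ras off, had the largest difference of the 7 in size on the averaged CH12F3 days and at spleen day 3.5 and, in spleen, the fewest counts. Day 3.5 in spleen gave 36, 44 and 23 counts in cKO libraries (3.10, 3.46 and 2.01 CPM), against 57, 69 and 73 counts in wild-type libraries (4.94, 4.66 and 5.94 CPM). The groups did not overlap, but at this depth the log2 fold change was -0.85 ± 0.31 (SE, 95% interval -1.47 to -0.24, edgeR adjusted p = 0.210). At day 2.5 it had 3.37, 3.04, 2.96, 4.68 and 1.71 CPM in cKO libraries, against 6.45, 5.73, 4.33, 7.77 and 5.70 CPM in wild-type libraries.
In CH12F3 it had 20.4 and 24.6 CPM in vector libraries at day 3, against 42.7 and 38.8 CPM in ELOF1 libraries. At day 7 it had 21.8 and 28.6 CPM in vector libraries, against 43.2 and 35.7 CPM in ELOF1 libraries. Each vector library lay below each ELOF1 library, and the averaged difference was -0.75 ± 0.19 (SE, edgeR adjusted p = 0.157). Day 1.5 had the widest spread, with 37.2, 34.0, 13.9 and 23.4 CPM in vector libraries, against 107, 67.7, 29.0 and 33.4 CPM in ELOF1 libraries. The first 2 values of each group are the first library series, which lay higher in both groups. Exons of Rasal2 share 244 bp with the antisense gene 2810025M15Rik, which had at most 402 counts in a CH12F3 library and 124 in a spleen library. As the use of strand is not given in the sources used here, those reads cannot be assigned to 1 of the 2. The antisense gene 2810025M15Rik had a log2 fold change of -0.33 in CH12F3 over days 3 and 7 (edgeR adjusted p = 0.260), -0.35 at spleen day 2.5 (0.332) and -0.09 at spleen day 3.5 (0.941), the direction of Rasal2 in each.

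Abca7, the lipid transporter, rose in cKO cells at spleen day 3.5. It had 119, 130 and 141 CPM in cKO libraries, against 91.8, 103 and 99.0 CPM in wild-type libraries. The groups did not overlap, and the log2 fold change was 0.41 ± 0.10 (SE, edgeR adjusted p = 0.0400), a fold of 1.33. At day 2.5 it had 116, 109, 114, 107 and 89.5 CPM in cKO libraries, against 77.8, 82.7, 76.3, 77.8 and 64.8 CPM in wild-type libraries.
In CH12F3 it had 54.1 and 50.8 CPM in vector libraries at day 3, against 40.6 and 42.5 CPM in ELOF1 libraries. At day 7 it had 49.9 and 50.7 CPM in vector libraries, against 39.1 and 41.6 CPM in ELOF1 libraries. All 4 vector libraries lay above the 4 ELOF1 libraries, and the averaged difference was 0.33 ± 0.12 (SE, edgeR adjusted p = 0.394). At day 1.5 the vector libraries had 77.8, 55.0, 50.3 and 54.4 CPM, against 36.5, 37.2, 41.4 and 44.1 CPM in ELOF1 libraries.

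Slc15a3, the lysosomal transporter, was higher in deficient cells without passing the test on any later day. The cKO libraries of spleen day 3.5 had 320, 313 and 337 CPM, against 234, 230.6 and 226.4 CPM in wild-type libraries. The groups did not overlap, and the log2 fold change was 0.49 ± 0.14 (SE, edgeR adjusted p = 0.0823). At day 2.5 it had 237, 264, 215.8, 157 and 211.8 CPM in cKO libraries, against 183, 140, 173, 90.8 and 100.4 CPM in wild-type libraries.
In CH12F3 it had 208.6 and 181 CPM in vector libraries at day 3, against 166 and 174 CPM in ELOF1 libraries. At day 7 it had 225.7 and 223.5 CPM in vector libraries, against 176 and 198 CPM in ELOF1 libraries. The groups were apart on each day but overlapped once both days were joined, and the averaged difference was 0.23 ± 0.08 (SE, edgeR adjusted p = 0.340). At day 1.5 the vector libraries had 248, 261, 227.7 and 231.02 CPM, against 169, 197, 181 and 191 CPM in ELOF1 libraries. Its exons share 1541 bp with the antisense gene Tmem132a, which had at most 20 counts in any library.

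Scn4a, the sodium channel subunit, was detected at higher levels in spleen than in CH12F3 and its difference was larger there on the later days, although the systems were not tested against each other. Day 3.5 in spleen gave 118, 127 and 165 CPM in cKO libraries, against 90.2, 95.0 and 86.4 CPM in wild-type libraries. The groups did not overlap, and the log2 fold change was 0.59 ± 0.16 (SE, edgeR adjusted p = 0.0746). At day 2.5 it had 134, 132, 175, 139 and 95.6 CPM in cKO libraries, against 93.2, 97.5, 92.1, 62.2 and 53.5 CPM in wild-type libraries.
In CH12F3 it had 18.5 and 22.6 CPM in vector libraries at day 3, against 18.9 and 14.8 CPM in ELOF1 libraries. Day 7 gave 13.2 and 16.3 CPM in vector libraries, against 14.99 and 11.7 CPM in ELOF1 libraries. The groups overlapped on both days, and the averaged difference was 0.22 ± 0.20 (SE, 95% interval -0.17 to 0.61, edgeR adjusted p = 0.833). At day 7 its sign turned, to -0.022 and -0.0125, without ELOF1 replicate 2 and without vector replicate 2. At day 1.5 the vector libraries had 32.9, 25.9, 14.9 and 21.2 CPM, against 13.9, 8.67, 12.3 and 11.4 CPM in ELOF1 libraries.

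Mknk2, the eIF4E kinase, had the highest level of the 7 per kb of exon in every group. At spleen day 3.5 it had 1070, 998 and 1153 CPM in cKO libraries, against 674, 859 and 714 CPM in wild-type libraries. The groups did not overlap, and it rose by a log2 fold change of 0.52 ± 0.13 (SE, edgeR adjusted p = 0.0422), a fold of 1.43. At day 2.5 it had 1036, 1102, 1217, 735 and 563 CPM in cKO libraries, against 784, 866, 875, 519 and 424 CPM in wild-type libraries.
In CH12F3 it had 295 and 332 CPM in vector libraries at day 3, against 229.4 and 260 CPM in ELOF1 libraries. At day 7 it had 388 and 423 CPM in vector libraries, against 276 and 324 CPM in ELOF1 libraries. The groups were apart within each day, and the averaged difference was 0.40 ± 0.10 (SE, edgeR adjusted p = 0.183). At day 1.5 the vector libraries had 440, 332, 382 and 430 CPM, against 264, 244, 244 and 297 CPM in ELOF1 libraries.

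The calls at these later days rested on few libraries. In spleen at day 3.5 none of the 3 calls held without any 1 of the 3 cKO libraries or without wild-type replicate 1 or 3, and without wild-type replicate 2 only Mknk2 was called (edgeR adjusted p = 0.0294). The calls also moved with the day 2.5 libraries, which share the estimate of spread: 3 to 5 of the 7 were called without any 1 library of the first series, with 355 to 378 of all genes, and 0 or 1 without any 1 day 2.5 library of the second, with at most 253 genes. The Fgd2 call in CH12F3 was lost without vector replicate 1 at either day or without any of the 4 ELOF1 libraries, at adjusted p-values of up to 0.126. In the other direction, when only the 6 libraries of spleen day 3.5 were fitted, 6 of the 7 genes were called, all but Rasal2, with 864 of all genes called in place of 277. With only the second library series all 7 were called, Rasal2 at an edgeR adjusted p of 0.0324, with 1206 genes called, and the DESeq2 test called 6 of 7 with 573 genes. At that day none of the 7 was called with scaling to the mouse total alone, where 260 genes were, or without the term for library series, where 87 were. Upper-quartile scaling called 1, Mknk2, with 277 genes. With no filter on low counts the Abca7 call was lost (edgeR adjusted p = 0.0838), and Fgd2, Mknk2, Scn4a and Slc15a3 were called with 512 genes. The Fgd2 call in CH12F3 was lost without the term for library series (edgeR adjusted p = 0.0841), with only the second library series (0.0561), with only the groups compared (0.178) and with scaling to the fly RNA (0.629).

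In CH12F3 the replicate numbers were treated as pairs, since same-numbered vector and ELOF1 libraries deviated together at day 1.5 (correlations of 0.77 to 0.81). Days 3 and 7 have 2 libraries per group. Each of these days gave 1 correlation (0.77 and 0.62), and differently numbered libraries have its negative by construction. The comparison with differently numbered libraries thus adds nothing at days 3 and 7. With the number as a block, 4 of the 7 genes were called over days 3 and 7, Fgd2 (edgeR adjusted p = 0.00103), Mknk2 (0.00257), Rasal2 (0.00593) and Arhgef12 (0.0219), and 543 of all genes were called in place of 26. At day 7 alone the block called Fgd2 (0.0144) and Mknk2 (0.0368) with 70 of all genes, against none of the 7 and 5 genes without it.

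Taken singly, neither CH12F3 day gave a call among the 7 in edgeR with the filter on low counts and no block. At day 3 no gene of the 7 was called by edgeR, where 0.00704% of genes were (all lower). There 4 of the 7 and 590 (4.15%) of all genes had an unadjusted p below 0.05, DESeq2 called 0 of the 7 and 13 genes, and edgeR with no filter called Rasal2 (adjusted p = 0.00582) and 48 genes. At day 7 none was called by edgeR, where 0.0352% of genes were (0.0141% higher, 0.0211% lower). There 4 of the 7 and 809 (5.70%) of all genes had an unadjusted p below 0.05. Fgd2 was the 1 gene of the 7 called by DESeq2 (adjusted p = 0.00769, 27 genes called) and by edgeR with no filter (adjusted p = 0.0473, 110 genes called). Libraries did not overlap for 6 of 7 genes on each day, all but Scn4a, against 15.8% and 16.6% of all genes at day 3 and 16.7% and 16.1% at day 7 on the higher and lower side. The day 7 difference minus the day 3 difference was between -0.14 (Scn4a) and 0.21 (Rasal2) on the log2 scale. That test called none of the 7 and none of all genes in edgeR, and 0 of the 7 and 1.51% of all genes had an unadjusted p below 0.05.

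**Figure D3:**
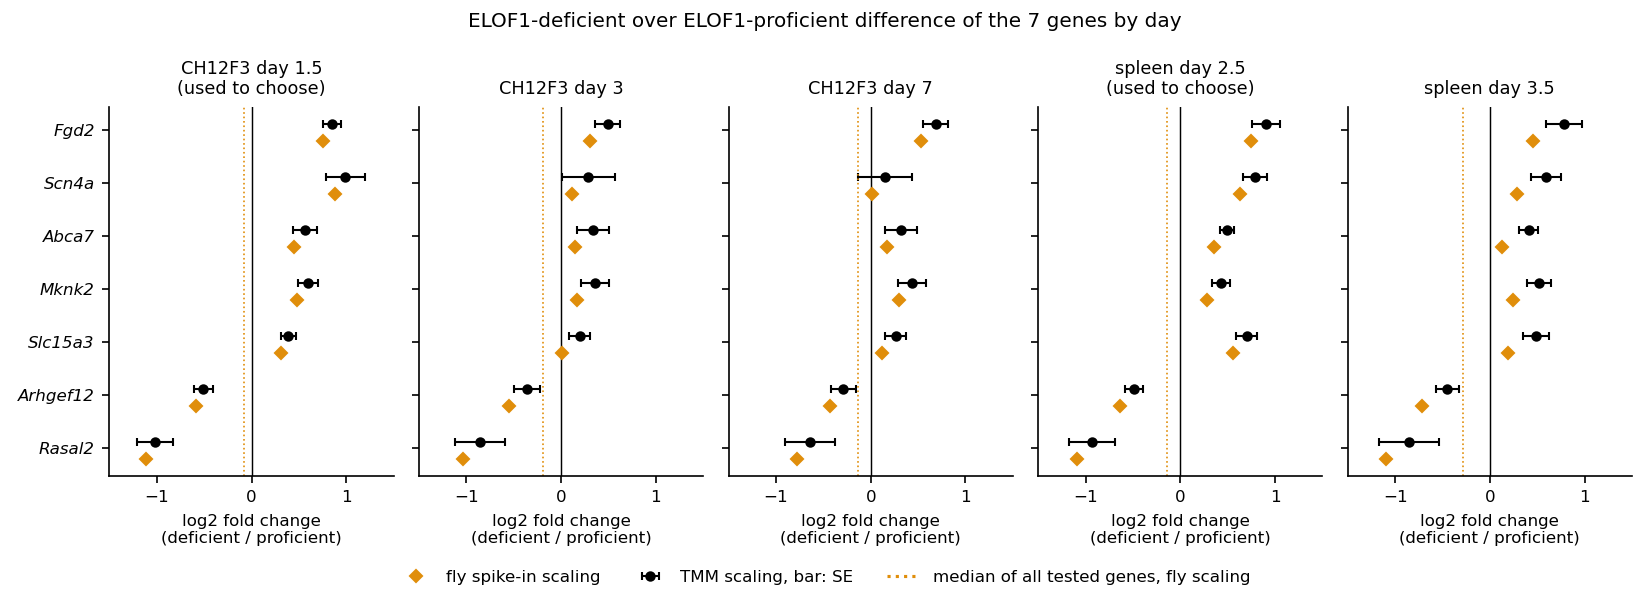
Log2 fold change of ELOF1-deficient over ELOF1-proficient cells (x axis) for the 7 genes (rows) at each day. Black points with SE bars use TMM scaling, orange diamonds the fly spike-in total, and the dotted line is the median of all tested genes under fly scaling. All 7 genes keep their side of 0 at every day under both scalings, and at spleen day 3.5 every diamond lies to the left of its point, by about the shift of the dotted line from 0.

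Scaling to the fly RNA, added in a fixed amount per cell, lowered every value in deficient cells. It moved the median log2 fold change of all tested genes by -0.09 at CH12F3 day 1.5, -0.19 at day 3, -0.15 at day 7, -0.15 at spleen day 2.5 and -0.28 at spleen day 3.5. Fly counts as a share of mouse counts overlapped between the groups on every day but CH12F3 day 7. At spleen day 3.5 they were 5.32% to 8.39% in cKO and 4.49% to 6.60% in wild-type libraries. On the fly scale at spleen day 3.5 the 5 higher genes had log2 fold changes of 0.13 (Abca7) to 0.45 (Fgd2), and Arhgef12 and Rasal2 had -0.71 and -1.09. None of the 7 was called there, and calls over all genes were 17 higher and 88 lower, against 153 higher and 124 lower with TMM. Relative to the shifted median of all genes, Fgd2 stood at 0.74 and Arhgef12 at -0.43. In CH12F3 the signs held as well, but Slc15a3 at day 3 and Scn4a at day 7 came to 0.0042 and 0.0090, and Fgd2 over days 3 and 7 came to 0.42 (edgeR adjusted p = 0.629) and was no longer called. Per 1000 fly counts, Fgd2 had 2.69 ± 0.55 counts in cKO and 1.97 ± 0.69 in wild-type libraries at day 3.5 (SD, n = 3 each), and the groups overlapped on that scale.

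The genes differed in level between systems and days, here as CPM per kb of exon over the 10 groups, from 2 tables that were scaled separately. Mknk2 ranged from 79.9 in ELOF1 cells at day 3 to 350.3 in cKO cells at day 3.5. For Fgd2 the groups ran, on every day, in the order spleen cKO, spleen wild type, CH12F3 vector and CH12F3 ELOF1, with 51.7 ± 11.7 in cKO cells at day 2.5 at the top and 6.47 ± 0.30 in ELOF1 cells at day 1.5 at the bottom (SD, n = 5 and 4). Scn4a ran from 19.4 in cKO cells at day 3.5 to 1.64 in ELOF1 cells at day 1.5, and Abca7 from 19.2 in cKO cells at day 3.5 to 5.89 in ELOF1 cells at day 1.5. The 2 lower genes had the opposite order of systems. Arhgef12 was highest in ELOF1 CH12F3 cells, at 7.45 ± 0.30 at day 1.5 (SD, n = 4), and lowest in cKO cells at day 2.5, at 2.68 ± 0.25 (SD, n = 5). Rasal2 ran from 4.31 in ELOF1 cells at day 1.5 to 0.208 in cKO cells at day 3.5. Slc15a3 was the exception to a split by system, at 58.9 in cKO cells at day 3.5, 44.1 in vector cells at day 1.5 and 24.995 in wild-type cells at day 2.5. Of the 9 neighbouring pairs in each order, 5 were apart beyond the range of their libraries for Fgd2, 4 for Abca7, 3 for Arhgef12, 2 each for Scn4a, Mknk2 and Slc15a3, and 1 for Rasal2.

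**Figure D4:**
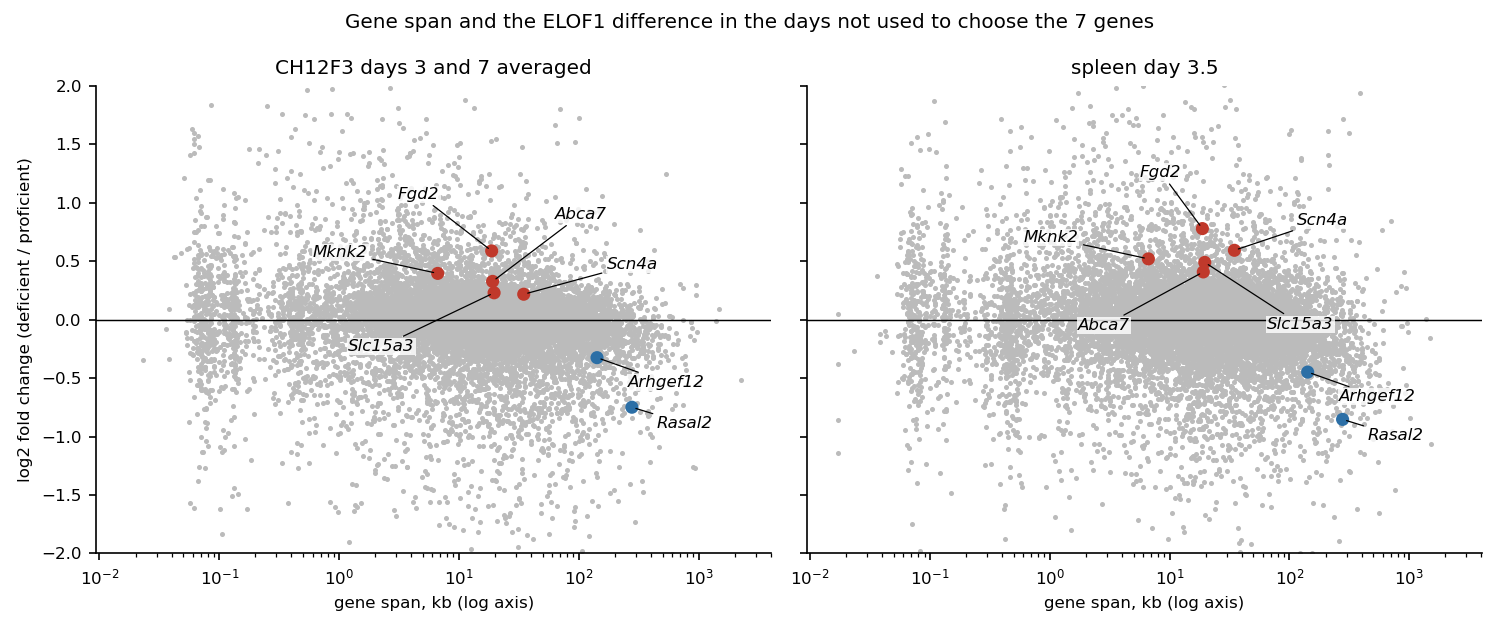
Span of each tested gene in kb (x axis, log scale) against its log2 fold change in ELOF1-deficient over ELOF1-proficient cells (y axis), in CH12F3 over days 3 and 7 and in spleen at day 3.5. Grey points are all tested genes (59 in CH12F3 and 55 in spleen lie beyond 2 and are not drawn), red points the higher and blue points the lower of the 7. Rasal2 and Arhgef12, at 277 and 142 kb, lie to the right of the 5 higher genes, at 6.65 to 34.7 kb.

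Long genes as a class leaned the way of Arhgef12 and Rasal2. In spleen at day 3.5, 33 of 1282 genes of 100 kb or more fell and 9 rose, with a median log2 fold change of -0.15. Of 4738 genes under 10 kb, the class of Mknk2 by its span in the count tables but not from its RefSeq start, 17 fell and 46 rose, with a median of 0.04. Of 7347 genes in between, the class of the other 4 higher genes, 74 fell and 98 rose (median -0.0065). In CH12F3 over days 3 and 7, 4 of 1273 genes of 100 kb or more fell and none rose, with a median of -0.07, against 4 falls and 7 rises among 5233 genes under 10 kb (median 0.04) and 7 falls and 4 rises among 7695 genes in between (median 0.0044). Arhgef12, at -0.45 and -0.32, and Rasal2, at -0.85 and -0.75, were lower than the median of their class in both systems. Both were chosen as lower at the earlier days, which favours this place, so it is a description and no test of span.

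Relatives of the 7 genes were taken from 6 family lists. In CH12F3 over days 3 and 7 no listed gene was called apart from Fgd2, and with the replicate block 6 listed genes beside the 7 were called. At spleen day 3.5, where 2.07% of all genes were called, 5 relatives were called, all higher. In spleen at day 3.5, of 34 other Dbl-type exchange factors tested, 1 rose and none fell, with a median of -0.05 against -0.0046 for all genes. That 1 was Arhgef18, an activator of RhoA, with 48.2 ± 7.6 CPM in cKO and 27.0 ± 5.2 CPM in wild-type cells (SD, n = 3 each, log2 fold change 0.83 ± 0.17, edgeR adjusted p = 0.0166). Of 9 other Ras GTPase-activating genes, 2 rose and none fell, with a median of 0.07. Rasa3 had 238 ± 24.8 CPM in cKO and 173 ± 14.1 CPM in wild-type cells (SD, n = 3 each, edgeR adjusted p = 0.0393), and Rasal3 420.0 ± 32.5 CPM against 308 ± 43.7 CPM (SD, n = 3 each, edgeR adjusted p = 0.0455), the direction opposite to that of Rasal2.

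Mapk11, which encodes a p38 kinase, was the 1 of 18 other genes around the MNK kinases and the cap-binding complex that was called at spleen day 3.5. It rose to 27.4 ± 4.5 CPM in cKO cells, against 11.8 ± 2.2 CPM in wild-type cells (SD, n = 3 each, log2 fold change 1.21 ± 0.17, edgeR adjusted p = 0.00138). In the list of SLC15 transporters and NOD signalling, 1 of 11 other genes rose and none fell. It was Slc15a4, the closest listed relative of Slc15a3 and a lysosomal transporter too, with 71.2 ± 3.4 CPM in cKO and 53.4 ± 3.5 CPM in wild-type cells (SD, n = 3 each, edgeR adjusted p = 0.0190). None of 4 other ABCA transporters and not the 1 other tested sodium channel gene was called.

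Of the nearest neighbours on the chromosome, 1 of 11 tested was called at spleen day 3.5 and none of 12 in CH12F3 over days 3 and 7. That was Arhgap45, a GTPase-activating gene that starts 1.08 kb beyond the end of Abca7 on the same strand, with a log2 fold change of 0.51 ± 0.10 (SE, edgeR adjusted p = 0.0175), the direction of Abca7. At spleen day 3.5, 6 of the 11 neighbours had the sign of the gene beside them.

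Other genes followed the 7 closely across libraries. Across the 16 libraries of a system, after removal of library series, the gene most like Fgd2 was Ifi30 (Pearson correlation 0.95 in CH12F3, 0.79 in spleen), followed by Treml2 (0.89 and 0.85). Arhgef12 was most like Myo7a (0.94 and 0.93) and Man1a (0.88 and 0.90), Rasal2 most like Pikfyve (0.90 and 0.88) and Elof1 itself (0.84 and 0.86). Abca7 was most like Slc2a6 (0.93 and 0.85) and Atp6ap1 (0.87 and 0.80), Mknk2 most like Ikbkb (0.95 and 0.84) and Haus8 (0.90 and 0.83). Slc15a3 was most like Mon1b (0.85 and 0.95) and Myo1g (0.82 and 0.95), and Scn4a most like Flna (0.73 and 0.91) and Rabep2 (0.67 and 0.97). Among the 7, Fgd2 and Arhgef12 correlated at -0.94 in CH12F3 and -0.66 in spleen, and Fgd2 and Scn4a at 0.64 and 0.96. These points share their groups, libraries and the choice of genes, so they are given as a description only.

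Among summed markers of other cell types in spleen at day 3.5, only those of dendritic cells did not overlap between the genotypes. At that day the 7 macrophage and monocyte markers summed to 6.45 to 13.5 CPM in cKO and 3.29 to 6.75 CPM in wild-type libraries, which overlapped, with 3 tested and none called by edgeR. Most of that sum was Adgre1 and Itgam, while C1qa had at most 0.165 CPM in any spleen library. The 5 dendritic cell markers summed to 20.8 to 26.1 CPM in cKO and 39.4 to 49.0 CPM in wild-type libraries, with 2 tested, Flt3 and Zbtb46, and 1 called lower. Xcr1, Siglech and Clec9a, the markers that define subsets of dendritic cells, had at most 0.165, 0.127 and 0 CPM in spleen. The 5 plasma cell markers summed to 983 to 1189 CPM in cKO and 1129 to 1561 CPM in wild-type libraries, which overlapped, with 5 tested and 1 called lower. The part of these cells in the differences of Fgd2 and Slc15a3, which myeloid cells also express, was not tested.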

How the data were processed

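RNA was measured by sequencing of rRNA-depleted total RNA with strand-specific kits and added polyA RNA of Drosophila S2 cells, per the labels' protocols and the series' design text. The authors deposited whole-number counts of reads over the exons of each gene, made with Bowtie2 and featureCounts on mm10 and dm6, per the submitters' processing notes. Not given in the sources used here are versions, annotation release, strand setting and how multi-mapped reads were handled. The authors' deposited exon length, a score here, served only for levels per kb. Symbols were found for 42461 of 43345 mouse genes.

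Mouse and fly counts were separated, and CPM was computed on the mouse total. Genes were tested with edgeR 4.0.16 (R 4.3.3) by quasi-likelihood with TMM scaling and filterByExpr (minimum count 10), as group plus library series over 16 libraries per system, with Benjamini-Hochberg adjustment over 14201 CH12F3 or 13367 spleen genes. The test was checked on counts simulated without effects of library series, day or replicate number, so that check does not cover these effects. DESeq2 1.42.0, other scalings, no filter, other sample sets, the replicate block and leaving out libraries were alternatives. The 7 genes and the gene lists were chosen with earlier results of these data known, and the test of day 7 against day 3 and the refits without libraries of other days were added after seeing the data. The genes named are the 7, Elof1, called members of the lists, called or overlapping neighbours, genes nearest the threshold and the 2 most alike per gene. Not all genes these rules name are reported here. Pairing by replicate number comes from the data, not the labels. At CH12F3 days 3 and 7, with 2 libraries per group, each day gave 1 correlation (0.77 and 0.62), and differently numbered libraries its negative by construction. Same-numbered libraries deviated together at CH12F3 day 1.5 (correlations of 0.77 to 0.81) and not at spleen day 3.5 (-0.43 to 0.24). At spleen day 2.5 they correlated at 0.43 to 0.88, with 0.87 and 0.88 in the first library series. In the second series some differently numbered libraries correlated more, such as cKO replicate 2 with wild-type replicate 3 (0.75, against 0.45 with wild-type replicate 2). The number thus marked no clear pair in that series at day 2.5.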

Additional observations from a re-analysis of the deposited data

Results flagged for a closer look

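In 28 sets of 4 or 5 libraries, 1 value stood apart from the others of its group by Dixon's test, where chance gives about 1 in 20. Fgd2 in vector replicate 4 at CH12F3 day 1.5 was the lowest of its 4 libraries, at 41.4 CPM, and the other 3 had 49.9 to 50.8 CPM. It still lay above all 4 ELOF1 libraries of that day, which had at most 27.7 CPM.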

How the results depend on the processing

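Over all alternatives, 1006 of 1008 values of the 7 genes kept the chosen sign, and the 2 exceptions were Scn4a at CH12F3 day 7 without ELOF1 replicate 2 (-0.022) and without vector replicate 2 (-0.0125), in a range of -0.022 to 0.33 over the libraries left out. Rasal2 had only 23 to 80 counts per library in spleen, and CH12F3 days 3 and 7 had 2 libraries per group. Where a lone library was left in a group, it was assumed to vary like the other groups. The cause of each change below was not tested, beyond the smaller number of libraries where some were left out.

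Counts of all genes called were 164 at CH12F3 day 1.5, 1 at day 3, 5 at day 7, 26 over days 3 and 7, 693 at spleen day 2.5 and 277 at spleen day 3.5. With DESeq2 they were 447 at day 1.5, 13 at day 3, 27 at day 7 (1 of the 7), 161 over days 3 and 7 (3 of the 7) and 573 at spleen day 3.5 (6 of the 7). With no filter they were 735 at day 1.5, 48 at day 3 (1 of the 7, Rasal2), 110 at day 7 (1 of the 7), 289 over days 3 and 7 (3 of the 7), 512 at spleen day 3.5 (4 of the 7, Abca7 no longer among them), and 1 for day 7 against day 3. With fly scaling they were 45 at day 1.5 with 1 neighbour called, 1 at day 7, 9 over days 3 and 7 (0 of the 7), 93 at spleen day 2.5 with 0 list genes and 0 neighbours, and 105 at spleen day 3.5 (0 of the 7) with 1 list gene and 0 neighbours. With no term for library series they were 22 at day 1.5, 1 at day 7, 2 over days 3 and 7 (0 of the 7), 203 at spleen day 2.5 and 87 at spleen day 3.5 (0 of the 7). With only the groups compared they were 66 at day 1.5, 0 at day 3, 0 at day 7, 4 over days 3 and 7 (0 of the 7), 326 at spleen day 2.5 and 864 at spleen day 3.5 (6 of the 7). With the second library series only they were 0 at day 1.5, 0 at day 3 and 1206 at spleen day 3.5 (7 of the 7), and 0 of the 7 were called over days 3 and 7. With the first series only they were 52 at day 1.5 and 0 at spleen day 2.5. At spleen day 3.5, scaling to the mouse total called 260 genes (0 of the 7) and upper-quartile scaling 277 (1 of the 7).

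With the replicate block, calls were 1221 at day 1.5 with 15 list genes and 4 neighbours, 35 at day 3, 70 at day 7 (2 of the 7) with 1 list gene, and 543 over days 3 and 7 (4 of the 7) with 6 list genes. In spleen the block gave 1543 at day 2.5 with 17 list genes and 5 neighbours, and 830 at day 3.5 (6 of the 7) with 14 list genes and 2 neighbours. At spleen day 3.5 same-numbered libraries share only a number, and in the second series of spleen day 2.5 they were no closer than some differently numbered ones.

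Leaving out 1 library at a time gave 42 to 145 calls at day 1.5, 0 to 1 at day 3, 0 to 9 at day 7, 9 to 28 over days 3 and 7 (0 to 1 of the 7), 425 to 801 at spleen day 2.5 and 68 to 378 at spleen day 3.5 (0 to 5 of the 7). For the later days this includes the libraries of the other days, which were left out as an addition after seeing the data and did not move the Fgd2 call in CH12F3.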
